A study of Mus musculus with 9 samples.

Results

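The 51 genes described here are the core of the cell cycle, followed in mouse bone marrow samples: cyclins, cyclin-dependent kinases (Cdks), Cdk inhibitors, E2F factors, pocket proteins, replication licensing genes and the machinery of mitosis. Each was looked up among the 21789 array measurements that carry exactly 1 gene symbol, which represent 19938 genes. 49 of the 51 were found. Ccnb1 had no such measurement, and Cdkn1a, the gene of p21, had only a measurement shared with another symbol, so neither has a value here. 27 of the 49 were treated as proliferation genes (cyclins E, A, B and F, the licensing genes and the mitotic machinery) and 6 as inhibitors (the Cip/Kip and Ink4 genes); these classes overlap in no gene.

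Progress through the cell cycle is driven by Cdks, which need a cyclin partner. D-type cyclins with Cdk4 and Cdk6, then cyclin E with Cdk2, phosphorylate the pocket proteins Rb, p107 and p130, which frees E2F factors to switch on genes of DNA replication; mitotic genes follow later, with cyclins A and B bound to Cdk1. Ink4 inhibitors block Cdk4 and Cdk6, Cip/Kip inhibitors act mainly on Cdk2 complexes, and marrow as a whole contains many dividing blood precursors, whereas reticular stromal cells that make Il7 are mostly regarded as slowly cycling.

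RNA of young adult C57Bl/6J mice was hybridised to 9 Affymetrix Mouse Gene ST 1.0 arrays. YFP-positive cells (3 arrays) came from mice carrying an IL7-Cre transgene and a heterozygous Rosa-eYFP reporter and were sorted as CD45-, Lin-, CD54+, BP1+ and YFP+. Wild-type cells (3 arrays) had the same surface sort, without a reporter, and YFP-negative cells (1 array) were the CD54+BP1+ cells of the reporter mice that lacked YFP. Unsorted bone marrow of wild-type mice (2 arrays) served as reference. Mice used for sorting were 6 to 12 weeks of age and gave 1800 to 10000 cells per sample (2300 for the YFP-negative sample), while total marrow entered as 10 ng of RNA, so the amount of input and the group cannot be told apart. YFP marks any cell in which the Cre, driven by Il7 sequences, has acted at some time, and the reporter animals and wild-type animals differ in genotype as well as in the gate. The sources used here do not say that replicates were separate animals, so p-values measure the spread between these arrays.

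Values are log2 signals, 1 per transcript cluster (the array's measuring unit for a gene), as the authors deposited them. A change is a difference of group means on that scale with its standard error (SE). Tests are limma's, with Benjamini-Hochberg adjustment over all 21789 measurements, and a gene is called higher or lower where the adjusted p is under 0.05. The YFP-negative array lay below all the others (median 3.46 against 4.51 to 4.60), so its comparisons use values that cyclic loess normalization brought to a common scale, and it has no replicate. YFP-positive replicate 3 had the lowest estimated array weight, 0.311; leaving it out gave 42 calls among the 49 genes against marrow, as many as with it. Where values are set against marrow below, "sorted arrays" means the 6 YFP-positive and wild-type arrays; the YFP-negative array is described last. All 6 reticular stroma markers (summarised as the mean log2 level of the list) stood at 10.69 to 10.95 in the YFP-positive, 10.75 to 10.85 in the wild-type and 3.84 to 4.0 in the total marrow arrays, and at 10.58 in the YFP-negative array after loess. Markers of blood cells ran the other way: the 9 neutrophil markers averaged 4.46 to 5.77, 3.88 to 4.16 and 11.26 to 11.36 in those 3 groups, and the 7 measured B lineage markers 4.71 to 5.17, 4.75 to 5.20 and 9.21 to 9.23, with Ebf1 alone of that list higher in sorted cells (1.20 in YFP-positive cells). The 6 measured erythroid markers averaged 3.91 to 4.55, 4.04 to 4.98 and 7.39 to 7.78, the 4 progenitor markers 4.33 to 4.88, 4.36 to 4.75 and 6.93 to 7.08, and the 5 endothelial markers 3.41 to 3.56, 3.35 to 3.48 and 3.88 to 3.97. In the YFP-negative array after loess these lists averaged 4.45 (neutrophil), 5.18 (B lineage), 4.23 (erythroid), 4.85 (progenitor) and 3.57 (endothelial). The ranges above are of deposited values. After loess, the YFP-positive and wild-type arrays read 10.79 to 10.83 and 10.34 to 10.62 (reticular stroma), and 4.51 to 5.67 and 3.62 to 3.99 (neutrophil). The other lists read 4.64 to 5.17 and 4.57 to 5.11 (B lineage), 3.86 to 4.50 and 3.95 to 4.94 (erythroid), 4.29 to 4.83 and 4.24 to 4.71 (progenitor), and 3.34 to 3.48 and 3.38 to 3.46 (endothelial). No marker has a value of 0 on this scale.

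In both sorted populations nearly the whole cycling programme stood far below its level in total marrow, and the 6 measured inhibitors were mixed. In YFP-positive cells 41 of the 49 genes were lower and 1, Cdkn1c, was higher; in wild-type cells 38 were lower and the same gene was higher. Over all measurements, 18.5% were called lower and 11.0% higher in YFP-positive cells, and 13.9% and 10.4% in wild-type cells. The median change of the 49 genes was -2.46 in the YFP-positive group and -2.47 in the wild-type group, where the median over all measurements was 0.09 and 0.00. All 27 proliferation genes were lower in each population, with medians of -3.51 (range -5.15 to -1.79) and -3.32 (range -5.20 to -1.81). Of the 6 inhibitors, YFP-positive cells had 1 higher and 2 lower (median -0.44), and wild-type cells 1 higher and 1 lower (median -0.18). Both comparisons share the same 2 total marrow arrays. Each of these genes is measured in bulk RNA, in which fewer cells of a dividing type and less RNA per cell cannot be told apart, and the blood cell markers above move with the same contrast; their part in the result was not tested.

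**Figure D1:**
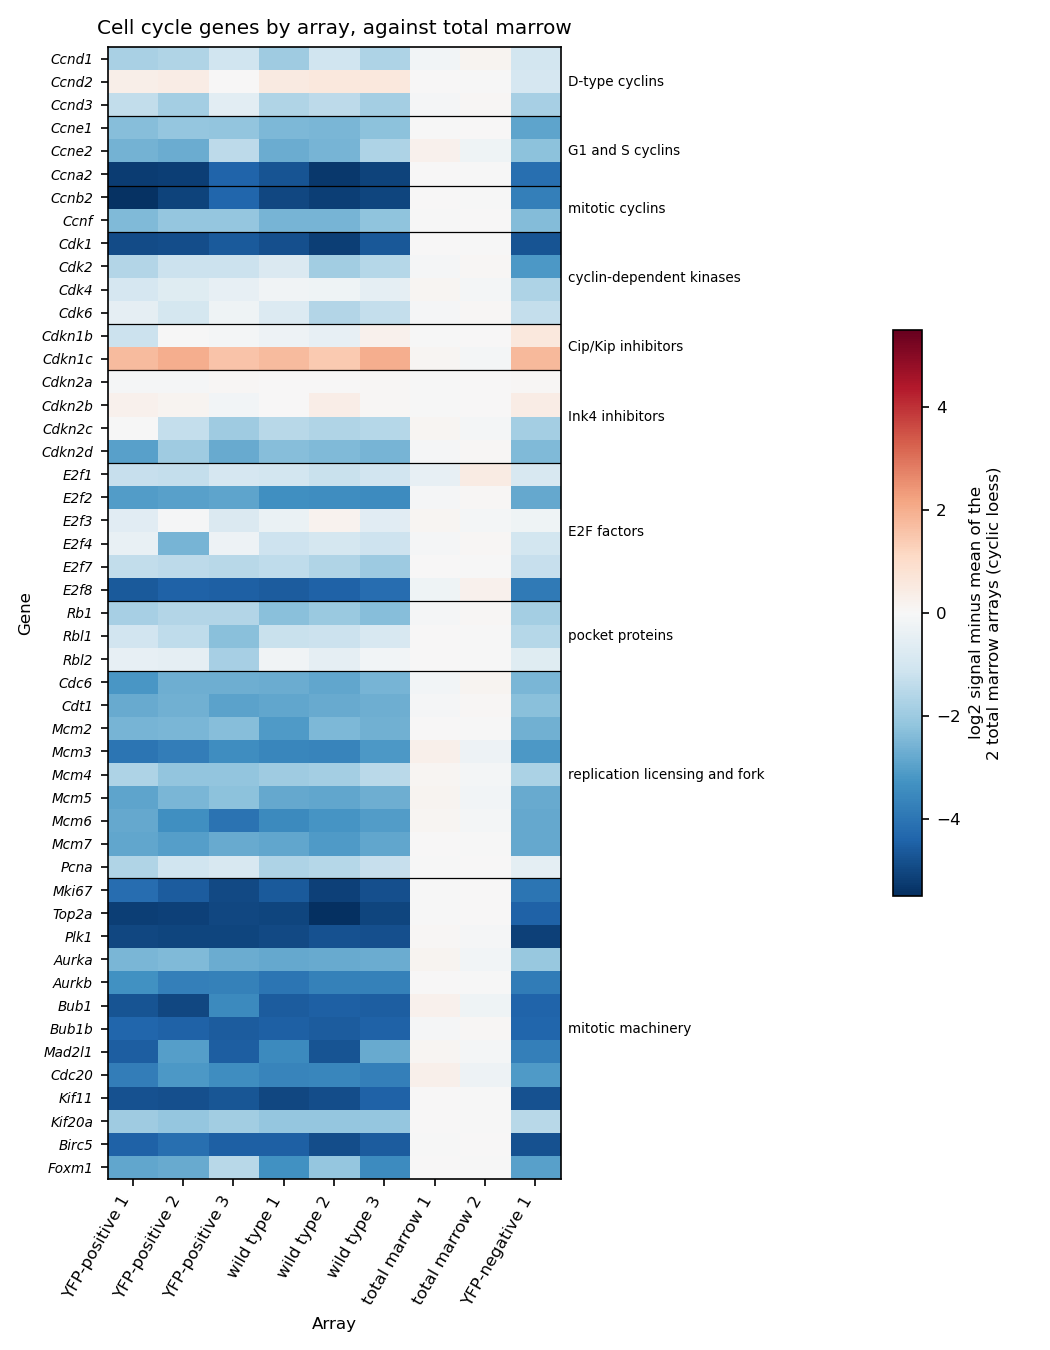
Heat map of the 49 cell cycle genes (vertical, grouped by role) in the 9 arrays (horizontal); colour is the log2 level after cyclic loess minus the mean of the total marrow arrays. The blocks of licensing and mitotic genes are lower in all 7 sorted arrays, while Cdkn1c is higher in all 7 and Cdkn2a, Cdkn2b and Ccnd2 are close to the marrow level or mixed.

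The shift was seen in each array. The median of the 27 proliferation genes, set against the marrow mean of each gene, was -3.13, -3.15 and -3.27 in the YFP-positive arrays and -3.50, -3.20 and -3.15 in the wild-type arrays. For the 6 inhibitors the same medians were -0.07, -0.25 and -0.38, and -0.23, -0.28 and -0.03. The inhibitor median covers genes that went both ways: Cdkn1b, Cdkn2c and Cdkn2d lay below marrow in all 6 of these arrays and Cdkn1c above it, while Cdkn2a and Cdkn2b read below the median of all values in marrow too, where a drop could hardly be seen. In 44 of the 49 genes all 6 YFP-positive and wild-type arrays lay below both marrow arrays, against 21.7% of all measurements. In 3 genes (Cdkn1c, Cdkn2a and Cdkn2b) all 6 lay above both, against 19.0% of all measurements. Ccnd2 and E2f3 were the other two, with overlapping groups. 15 of the 27 proliferation genes had a mean below 4.43, the median of all values in the file, in YFP-positive cells, as did 15 in wild-type cells and 0 in total marrow. For those genes the true level can lie lower than measured, so their changes and folds may understate the true drop. That median is a stated cut and not a measured detection limit, so no lower bound of a fold was established.

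**Figure D2:**
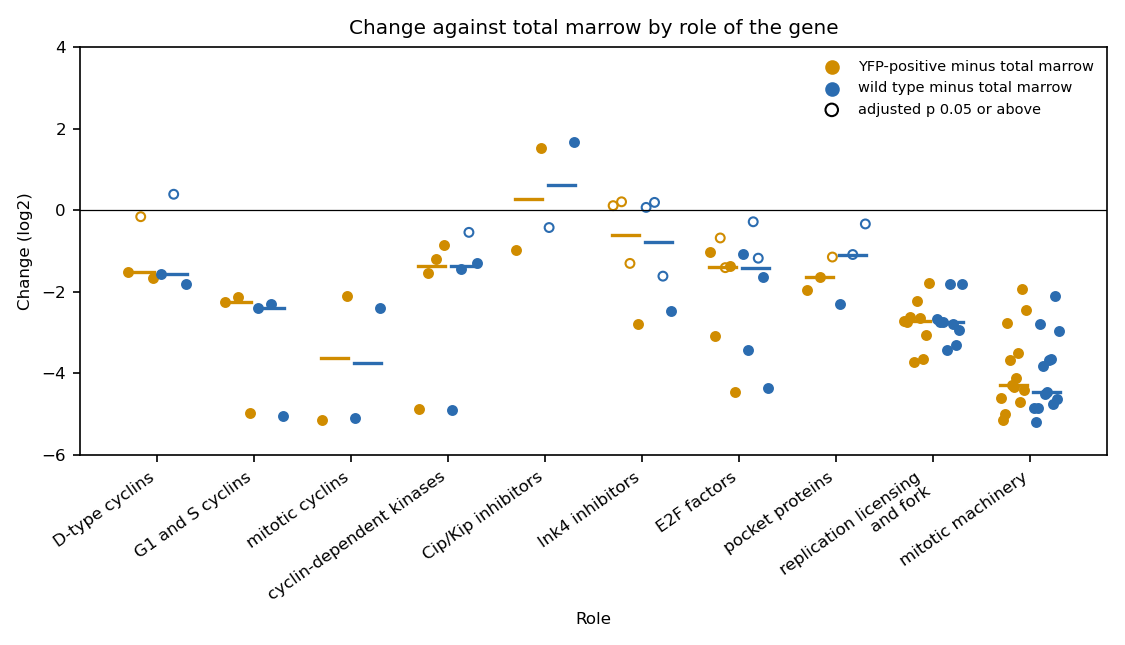
Change in log2 level against total marrow (vertical axis) for each of the 49 genes, by role (horizontal axis), in YFP-positive and wild-type cells; open symbols have an adjusted p of 0.05 or more and bars are medians. The mitotic machinery has medians of -4.28 and -4.47, and those of the Cdks, D-type cyclins and E2F factors lie between -1.37 and -1.57.

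The mitotic machinery had the largest median drop of any role. All 13 of its genes were lower in both populations, with medians of -4.28 (YFP-positive) and -4.47 (wild-type). Top2a, the topoisomerase that untangles chromosomes before they separate (transcript cluster 10390707), read 3.91, 3.97 and 4.06 in the YFP-positive arrays, 4.09, 3.66 and 4.03 in the wild-type arrays, and 9.13 in each marrow array. The marrow arrays stood apart from all sorted arrays by more than 5 units. Top2a was lower by 35.5-fold in YFP-positive cells (change -5.15 ± 0.15 SE, adjusted p = 3.06e-07). In wild-type cells it was lower by 36.7-fold (-5.20, adjusted p = 2.68e-07). A second, weaker measurement of Top2a (10390746) changed by -1.54 (adjusted p = 0.0216) and -1.25 (adjusted p = 0.0552, not called). Plk1, a kinase that runs centrosome maturation and mitotic entry (10557156), read 3.65, 3.59 and 3.64 in YFP-positive, 3.69, 3.86 and 3.75 in wild-type, and 8.69 and 8.55 in marrow arrays. Its 6 sorted values spread over less than 0.3 units and did not approach the marrow. Plk1 was lower by 31.8-fold in YFP-positive cells (-4.99 ± 0.11 SE, adjusted p = 1.38e-07). Its change in wild-type cells was -4.85 (adjusted p = 1.39e-07).

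The smallest change of this role was that of Kif20a, a kinesin of the central spindle used in cytokinesis (10454709). It read 4.24, 4.06 and 4.33 in YFP-positive, 4.07, 4.06 and 4.01 in wild-type, and 6.17 and 6.12 in marrow arrays. Its groups did not overlap, and the changes were -1.94 ± 0.12 (SE, adjusted p = 1.12e-05) and -2.10. Mki67, whose protein Ki-67 is the standard stain for cycling cells, read 4.51, 4.14 and 3.72 in YFP-positive, 4.11, 3.63 and 3.87 in wild-type, and 8.73 and 8.72 in marrow arrays, with changes of -4.60 ± 0.24 (SE, adjusted p = 4.72e-06) and -4.85. All sorted values of Mki67 lay far under the marrow. The spindle checkpoint genes Bub1 and Bub1b changed by -4.28 and -4.35 in YFP-positive cells and by -4.51 and -4.47 in wild-type cells. Mad2l1, a checkpoint gene as well, was the least even: 3.83, 5.36 and 3.78 in YFP-positive, 4.94, 3.73 and 5.63 in wild-type, and 8.59 and 8.31 in marrow arrays. Even its highest sorted array stayed below marrow (-4.13 ± 0.63 SE, adjusted p = 0.00206 in YFP-positive cells). The remaining genes were the motor Kif11 (-4.70 and -4.76), Birc5, which encodes survivin of the chromosomal passenger complex (-4.41 and -4.64), the passenger kinase Aurkb (-3.66 and -3.83), the anaphase activator Cdc20 (-3.51 and -3.65), the centrosomal kinase Aurka (-2.77 and -2.80) and Foxm1, a transcription factor of the late cycle (-2.46 and -2.97). Foxm1 is not called in YFP-positive cells when either marrow array is left out (adjusted p up to 0.0664).

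Since these genes moved together, their promoters were read from a RefSeq table (assembly GRCm38.p6) that gives 250 bases before and 50 after each transcription start; 40 of the 51 genes had an entry. The windows were searched on both strands for 3 elements known from cell cycle promoters: the cell cycle homology region (CHR; TTTGAA or TTCGAA), the CCAAT box (CCAAT), and 8-base E2F forms (TTTCCCGC, TTTGGCGC, TTTCGCGC, TTCCCGCC and TTGGCGCC). The E2F forms overlap each other, and TTGGCGCC can overlap a CCAAT box on the opposite strand. Of the 10 mitotic machinery genes with a promoter, 8 held a CHR together with a CCAAT box (80%, exact 95% interval 44.4 to 97.5%) and 0 an E2F form (interval 0 to 30.8%). Birc5 and Mad2l1 held none of the 3. Of the 3 mitotic cyclins, 2 held a CHR together with a CCAAT box. Ccnb1 held 2 CCAAT boxes, 1 E2F match and no CHR. Among all 27025 genes with a promoter, 21.7% held a CHR, 41.1% a CCAAT box, 8.61% both and 4.65% an E2F form. A match is a run of letters in the window and not evidence of binding. The 2 mitotic genes whose folds are given above and the mitotic cyclin described next are printed because they hold both elements; capitals mark the searched motifs on either strand, and all are 5' to 3' on the strand of the gene.
Top2a promoter (GRCm38.p6, chr11:99024140-99024439, minus strand): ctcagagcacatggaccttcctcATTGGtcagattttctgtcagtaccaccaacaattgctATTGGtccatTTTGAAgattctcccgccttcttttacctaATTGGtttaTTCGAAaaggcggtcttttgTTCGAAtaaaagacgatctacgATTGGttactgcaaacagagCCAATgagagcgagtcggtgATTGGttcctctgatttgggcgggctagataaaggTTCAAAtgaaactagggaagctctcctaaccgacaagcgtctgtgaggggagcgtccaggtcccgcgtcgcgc
Plk1 promoter (GRCm38.p6, chr7:122159185-122159484, plus strand): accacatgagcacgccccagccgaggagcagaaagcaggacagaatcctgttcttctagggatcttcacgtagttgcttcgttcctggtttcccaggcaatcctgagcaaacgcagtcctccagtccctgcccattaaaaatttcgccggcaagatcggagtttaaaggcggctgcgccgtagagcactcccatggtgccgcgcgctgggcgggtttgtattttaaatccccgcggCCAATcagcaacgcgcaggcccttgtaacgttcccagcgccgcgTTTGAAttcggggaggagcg
Ccnb2 promoter (GRCm38.p6, chr9:70421505-70421804, minus strand): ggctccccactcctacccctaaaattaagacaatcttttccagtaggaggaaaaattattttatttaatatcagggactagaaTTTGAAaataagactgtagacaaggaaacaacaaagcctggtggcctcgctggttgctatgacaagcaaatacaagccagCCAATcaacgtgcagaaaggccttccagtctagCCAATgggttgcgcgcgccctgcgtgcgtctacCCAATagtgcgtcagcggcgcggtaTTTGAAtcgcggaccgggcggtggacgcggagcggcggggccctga
In Top2a the matches are 4 CHR and 6 CCAAT, in Plk1 1 of each, and in Ccnb2 2 CHR and 3 CCAAT. The CHR of Plk1 lies at bases 31 to 36 after the start and its CCAAT box at -14 to -10. In Ccnb2 the nearer CHR lies at bases 5 to 10 and the 3 CCAAT boxes at -87, -54 and -21 (first base of each).

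All 5 measured cyclins of the E, A, B and F types were lower in both populations. The cyclin with the largest drop was Ccnb2, cyclin B2, a mitotic partner of Cdk1 (10594774). Its values were 4.39, 4.72 and 5.29 in YFP-positive, 4.89, 4.82 and 4.83 in wild-type, and 10.00 and 9.90 in marrow arrays. The sorted arrays lay together and well apart from marrow, and Ccnb2 was lower by 35.6-fold (-5.15 ± 0.24 SE, adjusted p = 2.51e-06) and 34.4-fold (-5.10, adjusted p = 2.50e-06). Ccna2, cyclin A2 of S phase and G2 (10497831), read 3.70, 3.77 and 4.53 in YFP-positive, 4.25, 3.71 and 3.86 in wild-type, and 9.02 and 8.94 in marrow arrays. It was lower by 31.6-fold (-4.98 ± 0.27 SE, adjusted p = 6.10e-06) and 32.9-fold (-5.04, adjusted p = 5.33e-06), again without overlap. Ccnf, cyclin F, a ubiquitin ligase subunit that binds no Cdk, read 3.71, 4.07 and 4.13, 3.60, 3.56 and 3.87, and 6.06 and 6.12 in the 3 groups in that order, with changes of -2.12 ± 0.17 (SE, adjusted p = 4.82e-05) and -2.41.

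The E cyclins, which bring Cdk2 into play at the start of S phase, were lower as well. Ccne1 read 4.64, 4.88 and 4.80 in YFP-positive, 4.58, 4.54 and 4.75 in wild-type, and 7.03 and 7.01 in marrow arrays (-2.24 ± 0.12 SE and -2.40). Its groups were tight and separate. Ccne2 varied more: 3.48, 3.40 and 4.80, then 3.36, 3.50 and 4.31, then 6.28 and 5.78, with changes of -2.13 ± 0.47 (SE, adjusted p = 0.0114) and -2.31. Its call is lost in both populations when marrow replicate 1 is left out (-1.88, adjusted p = 0.0977, and -2.05, adjusted p = 0.0824).

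D-type cyclins, the sensors of growth signals, showed the least uniform pattern of the cyclins: 2 of 3 were lower in each population, with medians of -1.51 and -1.57. Ccnd1 (10569646) read 4.28, 4.39 and 4.96 in YFP-positive, 4.14, 4.99 and 4.31 in wild-type, and 5.89 and 6.21 in marrow arrays (-1.51 ± 0.30 SE, adjusted p = 0.00743, and -1.57, adjusted p = 0.00658); the highest sorted array stayed below marrow, and both calls are lost without marrow replicate 2 (-1.34, adjusted p = 0.0651, and -1.41, adjusted p = 0.0631). Ccnd3 (10445688) read 7.58, 7.01 and 8.09, then 7.37, 7.75 and 7.17, then 9.23 and 9.24, again without overlap (-1.67 ± 0.31 SE, adjusted p = 0.00505, and -1.80, adjusted p = 0.00369). Ccnd2 (10548105) was the exception. It read 7.97, 7.99 and 7.42 in YFP-positive, 8.22, 8.47 and 8.34 in wild-type, and 8.04 and 7.87 in marrow arrays. The YFP-positive arrays overlapped marrow, and all wild-type arrays were slightly above it. Neither change passed the test (-0.16 ± 0.20 SE, adjusted p = 0.558, and 0.39 ± 0.20 SE, adjusted p = 0.231), but the wild-type change is called higher after cyclic loess or quantile normalization.

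Among the kinases the largest change was that of Cdk1. Cdk1, the mitotic kinase (10369815), read 4.18, 4.22 and 4.42 in YFP-positive, 4.32, 4.0 and 4.46 in wild-type, and 9.19 and 9.12 in marrow arrays. Its sorted values are a compact group. Cdk1 was lower by 29.5-fold in YFP-positive cells (-4.88 ± 0.16 SE, adjusted p = 4.95e-07), and by -4.89 in wild-type cells. Cdk2 (10373530) read 5.91, 6.29 and 6.14, then 6.78, 5.78 and 6.04, against 7.64 and 7.66 in marrow (-1.54 ± 0.28 SE, adjusted p = 0.00486, and -1.45, adjusted p = 0.00693). The wild-type call of Cdk2 is lost without either marrow array (adjusted p up to 0.0524). Cdk6 read 7.11, 6.61 and 7.15, then 6.93, 6.22 and 6.39, against 7.79 and 7.84 (-0.86 ± 0.25 SE, adjusted p = 0.0340, and -1.30, adjusted p = 0.00608). The YFP-positive call of Cdk6 held in only 11 of 18 alternative settings. Among the settings that lose it are those without YFP-positive replicate 2 (adjusted p = 0.0722), wild-type replicate 3 (0.0510) or either marrow array (0.144 and 0.150). After cyclic loess the Cdk6 means lay closer together, at 6.90 in YFP-positive cells and 7.46 in marrow. Cdk4 (10366814) read 8.31, 8.47 and 8.49, then 9.14, 9.27 and 8.81, against 9.80 and 9.44 in marrow. It was lower in YFP-positive cells (-1.20 ± 0.18 SE, adjusted p = 0.00168), and its wild-type change of -0.55 ± 0.18 did not pass (adjusted p = 0.0636). The Cdk1 promoter is printed as the only kinase window of the 4 to hold all 3 elements.
Cdk1 promoter (GRCm38.p6, chr10:69352863-69353162, minus strand): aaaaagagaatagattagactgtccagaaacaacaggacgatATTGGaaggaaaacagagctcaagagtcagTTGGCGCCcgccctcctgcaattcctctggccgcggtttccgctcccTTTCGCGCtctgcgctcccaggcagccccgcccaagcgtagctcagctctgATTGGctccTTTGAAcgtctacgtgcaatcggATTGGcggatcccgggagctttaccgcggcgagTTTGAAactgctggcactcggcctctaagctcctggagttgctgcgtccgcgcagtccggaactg
It holds 2 CHR, 3 CCAAT and 2 E2F matches.

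Inhibitors of the Cip/Kip family went in opposite directions. Cdkn1c, which encodes p57, an imprinted gene linked to quiescence (10569429), read 6.76, 7.0 and 6.42 in YFP-positive, 6.84, 6.65 and 7.11 in wild-type, and 5.34 and 5.06 in marrow arrays. All 6 sorted arrays lay more than 1 unit above both marrow arrays. Cdkn1c was higher by 2.88-fold in YFP-positive cells (1.53 ± 0.21 SE, adjusted p = 0.00115) and 3.18-fold in wild-type cells (1.67 ± 0.21 SE, adjusted p = 0.000723), the only higher gene of the 49 in either population. Cdkn1b, which encodes p27 (10542317), read 8.11, 9.18 and 8.91, then 9.15, 9.12 and 9.60, against 9.74 and 9.69 in marrow. All 6 sorted arrays were below marrow, YFP-positive replicate 1 most of all. The YFP-positive change was -0.98 ± 0.31 (SE, adjusted p = 0.0478) and the wild-type change -0.43 ± 0.31 (SE, adjusted p = 0.434). This YFP-positive call of Cdkn1b held in 9 of 18 alternative settings; it was lost without YFP-positive replicate 3, any wild-type array or either marrow array (adjusted p 0.0548 to 0.200), and after cyclic loess (-0.43, adjusted p = 0.454), quantile normalization (-0.51) or with all measurements tested. A separate measurement of Cdkn1b (10542310) gave -1.54 (adjusted p = 0.0689) and -0.83 (adjusted p = 0.371).

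Of the 4 Ink4 genes, only Cdkn2d was called with all arrays in the fit. Cdkn2d encodes p19-Ink4d (10591517) and read 5.17, 6.17 and 5.18 in YFP-positive, 5.87, 5.91 and 5.68 in wild-type, and 8.26 and 8.31 in marrow arrays. Marrow was far above every sorted array, and the gene was lower by 6.88-fold (-2.78 ± 0.29 SE, adjusted p = 0.000270) and 5.53-fold (-2.47 ± 0.29 SE, adjusted p = 0.000529). Its size of change lay within the range of the proliferation genes. Cdkn2c, which encodes p18-Ink4c (10515090), read 7.18, 5.86 and 5.06, then 5.76, 5.71 and 5.70, against 7.48 and 7.21. YFP-positive replicate 1 stood next to the marrow and the other sorted arrays well below it. Neither change of Cdkn2c passed (-1.31 ± 0.52 SE, adjusted p = 0.100, and -1.62 ± 0.52 SE, adjusted p = 0.0602). Without YFP-positive replicate 1, which also enters the common estimate of spread, both changes of Cdkn2c are called lower. The products of the neighbouring Cdkn2a and Cdkn2b genes are associated with senescence, and both genes read low everywhere. Cdkn2a (10514340) lay at 4.15, 4.17 and 4.39, then 4.22, 4.17 and 4.18, against 4.11 and 4.14; Cdkn2b (10514347) lay at 4.44, 4.42 and 4.21, then 4.26, 4.57 and 4.2, against 4.11 and 4.19. Although every sorted value was above both marrow values, the changes were at most 0.20 and did not pass (adjusted p = 0.506 and 0.802 for Cdkn2a, 0.338 and 0.485 for Cdkn2b). The means of both genes lay below the median of all values in sorted cells and marrow alike, so the size of such differences is not resolved.

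**Figure D3:**
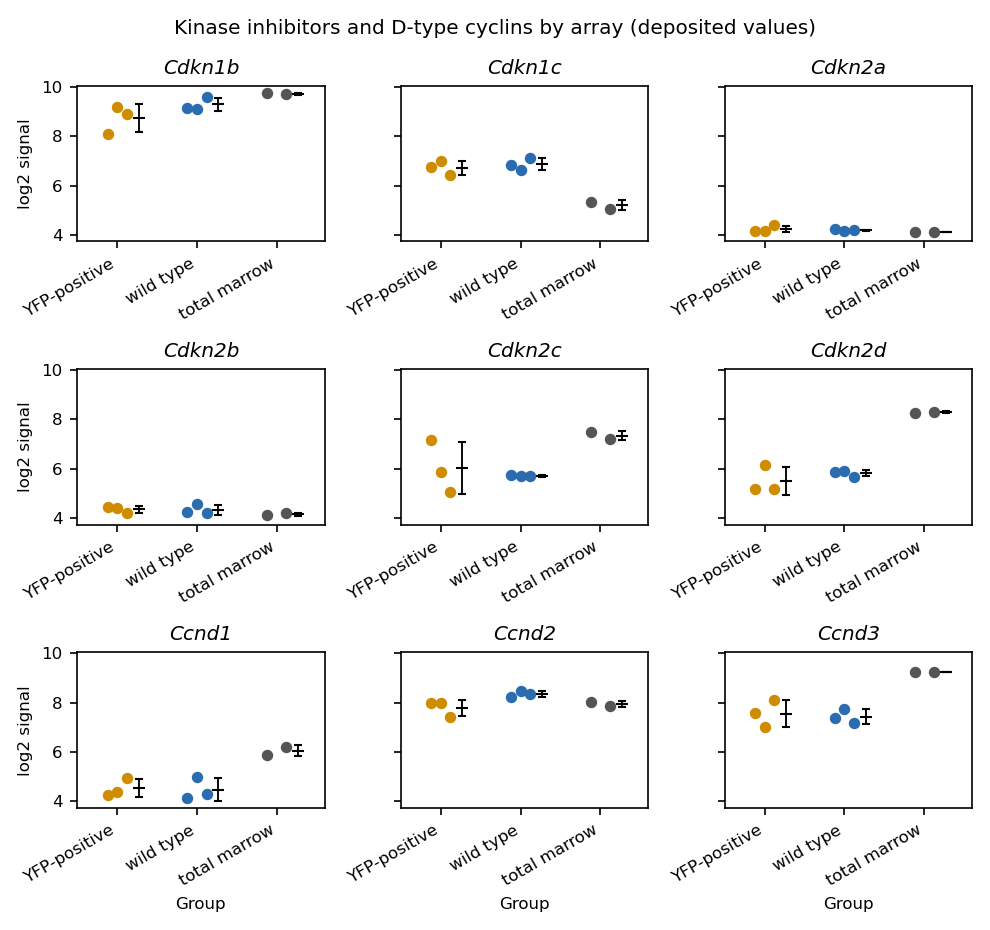
Deposited log2 signal (vertical axis) of the 6 measured Cdk inhibitors and the 3 D-type cyclins in each YFP-positive, wild-type and total marrow array, with group mean and SD. The YFP-negative array is not drawn. Cdkn1c is higher in the YFP-positive and wild-type arrays (6.42 to 7.11) than in marrow (5.06 and 5.34), and Cdkn2d is lower.

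The promoter of Cdkn2d, the inhibitor called lower in both populations, is printed to set it beside those of the mitotic genes: it holds 1 CCAAT match and no CHR or E2F form. Over the 6 inhibitor genes with a promoter, 0 held a CHR together with a CCAAT box, 1 held a CHR, 4 a CCAAT box and 1 an E2F form.
Cdkn2d promoter (GRCm38.p6, chr9:21291160-21291459, minus strand): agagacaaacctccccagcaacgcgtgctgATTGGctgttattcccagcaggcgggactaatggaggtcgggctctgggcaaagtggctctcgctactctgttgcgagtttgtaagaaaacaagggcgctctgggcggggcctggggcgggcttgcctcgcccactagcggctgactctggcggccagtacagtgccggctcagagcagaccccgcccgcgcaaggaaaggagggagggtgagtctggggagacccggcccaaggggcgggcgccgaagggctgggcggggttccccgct

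On the measurements used, all 6 E2F genes changed downwards in both populations, and 4 were called lower in each. E2f8, an atypical repressor that peaks in S phase (10563780), read 3.44, 3.66 and 3.65 in YFP-positive, 3.54, 3.64 and 3.84 in wild-type, and 7.83 and 8.26 in marrow arrays. It was lower by 22.0-fold in YFP-positive cells (-4.46 ± 0.17 SE, adjusted p = 8.73e-07), and by -4.37 in wild-type cells, with no overlap. E2f2, an activator (10509168), read 4.76, 4.89 and 4.88, then 4.54, 4.55 and 4.43, against 7.88 and 7.98. The sorted arrays again formed a compact group below marrow, 8.47-fold lower in YFP-positive cells (-3.08 ± 0.11 SE, adjusted p = 6.54e-07) and -3.42 in wild-type cells. E2f7, the other atypical repressor, changed by -1.37 and -1.65, and the activator E2f1 by -1.04 (adjusted p = 0.0251) and -1.07 (adjusted p = 0.0248). The E2f1 call in YFP-positive cells is lost without YFP-positive replicate 1 or 2 or marrow replicate 2, and that in wild-type cells without any of the wild-type arrays or marrow replicate 2 (adjusted p up to 0.164). E2f3 and E2f4 did not pass in either population. E2f3 (10408477) read 5.67, 6.18 and 5.33, then 5.99, 6.65 and 5.73, against 6.54 and 6.28, overlapping marrow in a wild-type array (-0.68 ± 0.32 SE, adjusted p = 0.157, and -0.29, adjusted p = 0.661). A second measurement of E2f3 (10408475) gave 0.70 (adjusted p = 0.552) and -0.21 (adjusted p = 0.921). E2f4, a repressor E2F of resting cells, had YFP-positive replicate 2 at 5.42 and the other sorted arrays between 6.94 and 7.63, against 8.24 and 8.27 (-1.41 ± 0.60 SE, adjusted p = 0.120, and -1.18, adjusted p = 0.232). Without YFP-positive replicate 2, both changes of E2f4 are called lower.

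All 3 pocket proteins, which hold E2Fs in check, stood below marrow in all 6 YFP-positive and wild-type arrays; the test passed 2 of them in the YFP-positive group and 1 in the wild-type group. Rb1 read 6.37, 6.51 and 6.33, then 5.93, 6.32 and 5.91, against 8.35 and 8.36, and was lower in both populations (-1.96 ± 0.15 SE, adjusted p = 4.77e-05, and -2.30). Rbl1, the gene of p107, read 5.21, 4.87 and 3.92, then 5.08, 5.17 and 5.37, against 6.32 and 6.28; only the YFP-positive change passed (-1.63 ± 0.34 SE, adjusted p = 0.00878, against -1.09, adjusted p = 0.0536), and it is lost without either marrow array (adjusted p = 0.0653 and 0.0547), while the wild-type change passes without YFP-positive replicate 1 or 3. Rbl2, the gene of p130, which is the pocket protein of quiescent cells, read 6.37, 6.28 and 4.81, then 6.67, 6.48 and 6.75, against 7.04 and 6.90. YFP-positive replicate 3 was low in both Rbl1 and Rbl2, and neither Rbl2 change passed (-1.15 ± 0.43 SE, adjusted p = 0.0847, and -0.34, adjusted p = 0.704); the YFP-positive change passes without replicate 1 or 3 of that group.

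Replication licensing and fork genes were lower throughout: 9 of 9 in both populations, with medians of -2.72 and -2.75. These genes load the Mcm2-7 helicase at origins in G1 and unwind DNA in S phase. Mcm3 (10353420) read 3.66, 3.88 and 4.28 in YFP-positive, 4.10, 4.10 and 4.49 in wild-type, and 7.93 and 7.40 in marrow arrays. No sorted array came near marrow. Mcm3 was lower by 13.2-fold in YFP-positive cells (-3.73 ± 0.24 SE, adjusted p = 1.67e-05), and by -3.44 in wild-type cells. Mcm6 (10357436) read 5.96, 5.40 and 4.53, then 5.34, 5.74 and 5.79, against 9.11 and 8.78, and was 12.5-fold lower in YFP-positive cells (-3.64 ± 0.38 SE, adjusted p = 0.000253) and -3.32 in wild-type cells. Its YFP-positive arrays spread over more than 1 unit. Pcna, the sliding clamp of the replication fork that also serves DNA repair (10487930), changed least. It read 8.74, 9.21 and 9.24, then 8.83, 9.10 and 9.20, against 10.87 and 10.84, a 3.46-fold drop in YFP-positive cells (-1.79 ± 0.19 SE, adjusted p = 0.000243) and -1.81 in wild-type cells (adjusted p = 0.000225). Its sorted arrays were even and all below marrow. A second measurement of Pcna (10461391) gave -1.79 and -1.81 and lay within 0.03 units of the first on every array. Its adjusted p-values were the same too (0.000243 and 0.000225), so it is not read as a separate measurement of Pcna. The loading factors Cdc6 (-2.72 and -2.68) and Cdt1 (-2.74 and -2.75) and the helicase genes Mcm2 (-2.62 and -2.75), Mcm4 (-2.24 and -1.82), Mcm5 (-2.65 and -2.79) and Mcm7 (-3.05 and -2.95) lay between.

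Their promoters were searched in the same way. Of 8 with a window, 6 held an E2F form (75%, exact 95% interval 34.9 to 96.8%), 6 a CCAAT box and 2 a CHR. The windows of Mcm3 and Mcm6, the licensing genes with the largest changes, are printed because both hold E2F forms and no CHR.
Mcm3 promoter (GRCm38.p6, chr1:20820263-20820562, minus strand): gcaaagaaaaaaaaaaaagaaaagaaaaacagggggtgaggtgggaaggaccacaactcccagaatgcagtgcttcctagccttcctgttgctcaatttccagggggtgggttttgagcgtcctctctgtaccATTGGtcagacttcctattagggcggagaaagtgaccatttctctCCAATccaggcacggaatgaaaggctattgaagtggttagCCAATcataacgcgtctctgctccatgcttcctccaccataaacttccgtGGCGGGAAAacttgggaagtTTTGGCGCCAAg
Mcm6 promoter (GRCm38.p6, chr1:128359656-128359955, minus strand): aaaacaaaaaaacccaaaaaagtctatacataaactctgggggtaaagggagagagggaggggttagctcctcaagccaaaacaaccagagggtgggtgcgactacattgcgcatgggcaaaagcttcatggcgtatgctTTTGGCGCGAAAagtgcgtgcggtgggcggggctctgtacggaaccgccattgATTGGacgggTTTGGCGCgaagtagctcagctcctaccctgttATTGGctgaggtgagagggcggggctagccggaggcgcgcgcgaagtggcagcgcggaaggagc
Mcm3 has 5 E2F matches, which overlap into 2 stretches of capitals, and 3 CCAAT boxes. Mcm6 has 3 E2F matches and 2 CCAAT boxes. Among genes outside the 51, 13 of 22 spindle, kinetochore and cytokinesis genes with a promoter (59.1%) held a CHR with a CCAAT box and 0 an E2F form, while 7 of 15 DNA synthesis genes (46.7%) held an E2F form and 3 (20%) a CHR. These shares depend on counting both strands. On the strand of the gene alone, 6 of 10 mitotic machinery genes held a CHR with a CCAAT box (7 a CHR) and 5 of 8 licensing genes an E2F form, but only 5 of the 22 spindle, kinetochore and cytokinesis genes (22.7%) held the former and 3 of the 15 DNA synthesis genes (20%) the latter. Over all genes the shares on that strand were 13.2% for a CHR, 2.93% for a CHR with a CCAAT box and 2.4% for an E2F form.

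**Figure D4:**
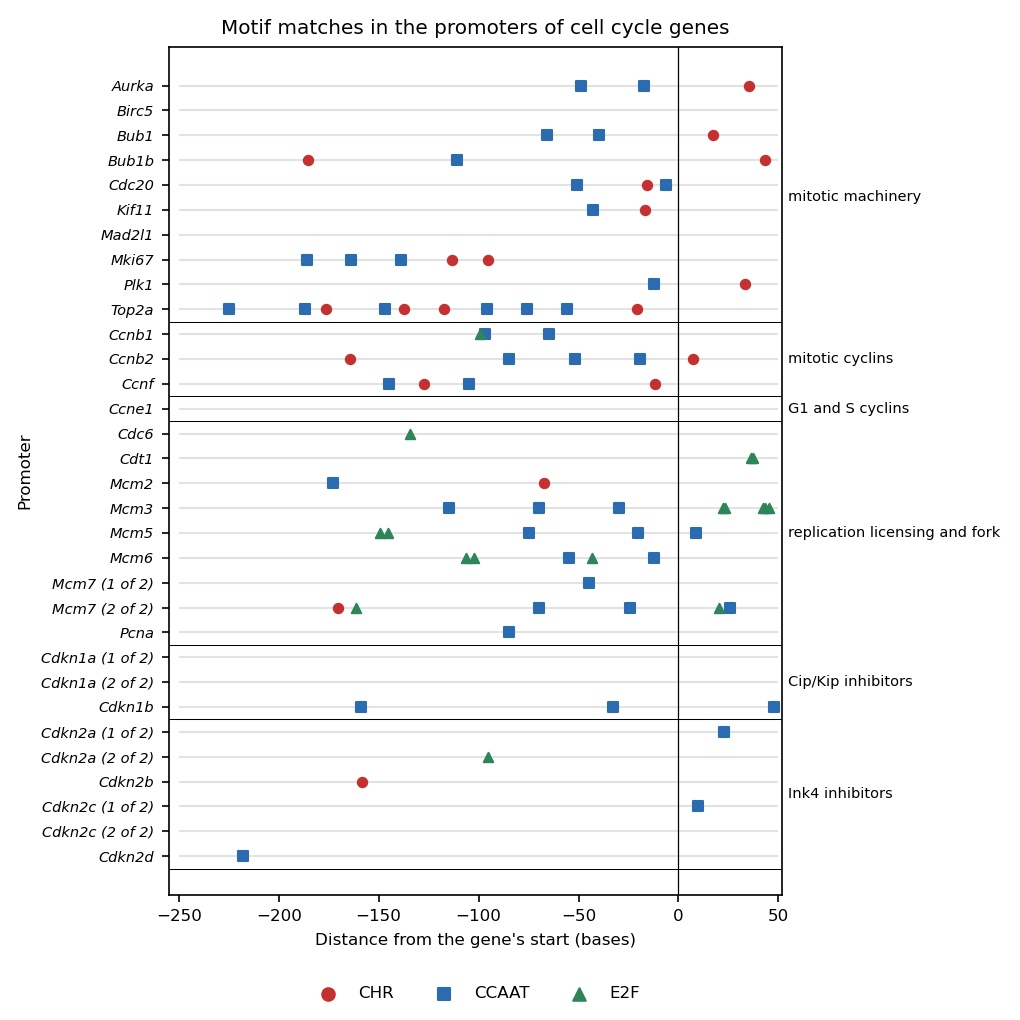
Positions of CHR, CCAAT and E2F matches on either strand (horizontal axis, bases from the transcription start, from 250 before to 50 after) in the promoters of cell cycle genes (vertical axis, by role). 8 of 10 mitotic machinery genes hold a CHR and 0 an E2F match, and 6 of 8 licensing genes hold an E2F match.

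Other genes of DNA synthesis and mitosis were lower too. A further 71 genes were listed by role, and 69 were measured. Over all measurements, 18.5% were called lower in YFP-positive cells and 13.9% in wild-type cells. In DNA synthesis, 18 of 19 were lower in each population (medians -2.52 and -2.61), led by the ribonucleotide reductase subunit Rrm2 (-4.63 in YFP-positive cells), the primase Prim1 (-4.07) and Rrm1 (-3.96); Orc6 was the exception, at -1.57 (adjusted p = 0.0623). In the spindle, kinetochore and cytokinesis list 23 of 24 were lower in each, including Cks2 (-4.81), the centromeric histone Cenpa (-4.69) and Cdca8 (-4.34). Its exception was Pttg1, the gene of securin, with -0.32 (adjusted p = 0.338). All 5 genes that switch Cdk1 on or off were lower, among them Wee1 (-2.60), Cdc25a (-2.43) and Cdc25c (-2.36).

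Genes related to the repressor complex DREAM were lower or not called, with median changes of -1.08 (YFP-positive) and -0.79 (wild-type). Genes of growth arrest were mixed. 3 of 7 DREAM-related genes were lower in each population: Mybl2 (-1.67 in YFP-positive cells), Lin54 (-1.62) and Lin9 (-1.46). Of 14 arrest and quiescence genes, YFP-positive cells had 2 higher and 4 lower, and wild-type cells 2 higher and 2 lower. The shares of all measurements called were 11.0% and 18.5%, then 10.4% and 13.9%. With only 14 genes, these counts are not read as a result about the list. Gas1, a growth arrest gene of fibroblasts, was higher by 2.25 and 2.51 (adjusted p = 0.000213 and 0.000107), and the p53 target Zmat3 was higher in both. The antiproliferative genes Btg1 (-1.69 and -1.42) and Tob1 (-1.42 and -1.0) were lower in both. Gadd45a (-2.99) and Mdm2 (-1.24), both p53 targets, passed only in YFP-positive cells, and the difference between the populations is not called for any of the 14.

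Cells marked by the Il7 reporter and cells from wild-type mice with the same surface sort were not told apart by the test in any of these genes. 0 of the 49 were called by limma between YFP-positive and wild-type cells, as were 0% of all measurements in either direction; 4 of the 49 had an unadjusted p under 0.05. The median difference was 0.04, with a range from -0.81 (Rbl2) to 0.51 (Foxm1). Cdk4 was 0.65 lower in YFP-positive cells (SE 0.16, adjusted p = 0.213), with all YFP-positive arrays below all wild-type arrays. The others were Ccnd2 (-0.55 ± 0.18 SE, adjusted p = 0.280), E2f2 (0.34 ± 0.10 SE, adjusted p = 0.260) and Rb1 (0.35 ± 0.14 SE, adjusted p = 0.318). For Cdk1 the 95% interval of the difference ran from -0.32 to 0.35, for Top2a from -0.27 to 0.36, for Mki67 from -0.25 to 0.75 and for Cdkn1c from -0.58 to 0.30. It was widest for Mad2l1, at -1.77 to 0.88, so differences of that size cannot be seen for every gene. In the same contrast 7 of 9 neutrophil markers had an unadjusted p under 0.05 and 0 were called, with a median difference of 1.08 and higher values in YFP-positive cells; their part in these differences was not tested.

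Proliferation genes of the YFP-negative cells also lay far below marrow. After loess, 38 of the 49 genes were lower and 1 higher (all measurements: 13.2% and 13.0%), with a median change of -2.41. 26 of 27 proliferation genes were lower, with a median of -3.00, and the inhibitors had a median of 0.24 with 1 higher and 1 lower. As deposited, the median of the inhibitors turned to -0.80, that of the proliferation genes was -4.35, and 0 of the 49 genes were higher. The proliferation gene not called lower after loess was Pcna, at 9.72 (-0.55, adjusted p = 0.262). On the loess scale Top2a stood at 4.61, Plk1 at 3.48, Mki67 at 4.64 and Cdk1 at 4.31 in this array. Cdkn1c stood at 6.70 and was 3.45-fold higher than marrow (1.79 ± 0.26 SE, adjusted p = 0.00203), but as deposited its change was 0.32 and did not pass (adjusted p = 0.316). Cdkn2d stood at 5.61 (-2.41, adjusted p = 0.00298), and Cdkn1b at 9.74 (0.60, adjusted p = 0.432).

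Against the other sorted cells, the number of genes called in the YFP-negative array depended on the scaling and on the fit. As deposited, 34 of the 49 were lower than in YFP-positive and 36 than in wild-type cells. Quantile normalization gave 4 and 5 calls and a shift to the common median 4 and 6. With the loess values kept, array weights gave 3 and 9 calls and the replicate block 0 and 0. After loess, 1 was lower and 0 were higher than in YFP-positive cells (all measurements: 1.36% and 2.62%), and 10 had an unadjusted p under 0.05. Against wild-type cells 2 were lower and 2 higher (1.57% and 3.0%), and 14 had an unadjusted p under 0.05. Ccnd2 was the gene called in both. After loess it read 6.58 in the YFP-negative array, 7.81, 7.90 and 7.53 in the YFP-positive, 7.97, 8.07 and 8.07 in the wild-type, and 7.52 and 7.46 in the marrow arrays. It was thus below all the other 8 arrays, by -1.17 ± 0.16 (SE, adjusted p = 0.0183) against YFP-positive, -1.46 ± 0.16 (SE, adjusted p = 0.0129) against wild-type and -0.92 ± 0.17 (SE, adjusted p = 0.00723) against marrow cells. Cdk4, the kinase partner of cyclin D2, stood at 7.38, against 8.15, 8.41 and 8.63 in YFP-positive and 8.88, 8.86 and 8.56 in wild-type arrays. Its change was -1.39 ± 0.22 (SE, adjusted p = 0.0242) against wild-type cells and -1.02 (adjusted p = 0.0525) against YFP-positive cells. Cdk2 stood at 4.23, below all 6 other sorted arrays (5.49 to 6.61), but did not pass (-1.83 ± 0.39 SE, adjusted p = 0.0503, and -1.75, adjusted p = 0.0541).

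The 2 genes called higher against wild-type cells were E2f2 (0.62 ± 0.13 SE, adjusted p = 0.0469) and Kif20a (0.62 ± 0.13 SE, adjusted p = 0.0474). Both turn to lower in the values as deposited, and they were called in 5 and 6 of 17 alternative settings; both calls are lost without any wild-type or marrow array, that of E2f2 also without YFP-positive replicate 2 and that of Kif20a without YFP-positive replicate 1. The Cdk4 call held in 12 of 17 and is lost without wild-type replicate 1 or 2 or either marrow array. The count of 4 genes called against wild-type cells became 1 without wild-type replicate 1 or 2 or either marrow array, 2 without wild-type replicate 3 and 6 without YFP-positive replicate 3. The count of 1 against YFP-positive cells became 2 without YFP-positive replicate 1 or 3 or wild-type replicate 1. Ccnd2 was called in 16 of 17 settings in each comparison; the exception was the replicate block, at adjusted p-values of 0.0837 and 0.0759. Ccnb2 stood at 5.96, 1.20 above YFP-positive and 1.32 above wild-type cells, without passing (adjusted p = 0.105 and 0.0822). With 1 array, its spread was taken from the other groups, and any technical difference of the array and the group cannot be told apart. In the same array the progenitor marker Cd34 was called higher than in both other sorted groups and the neutrophil marker Mpo lower than in YFP-positive cells (-3.33); their part in these results was not tested.

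**Figure D5:**
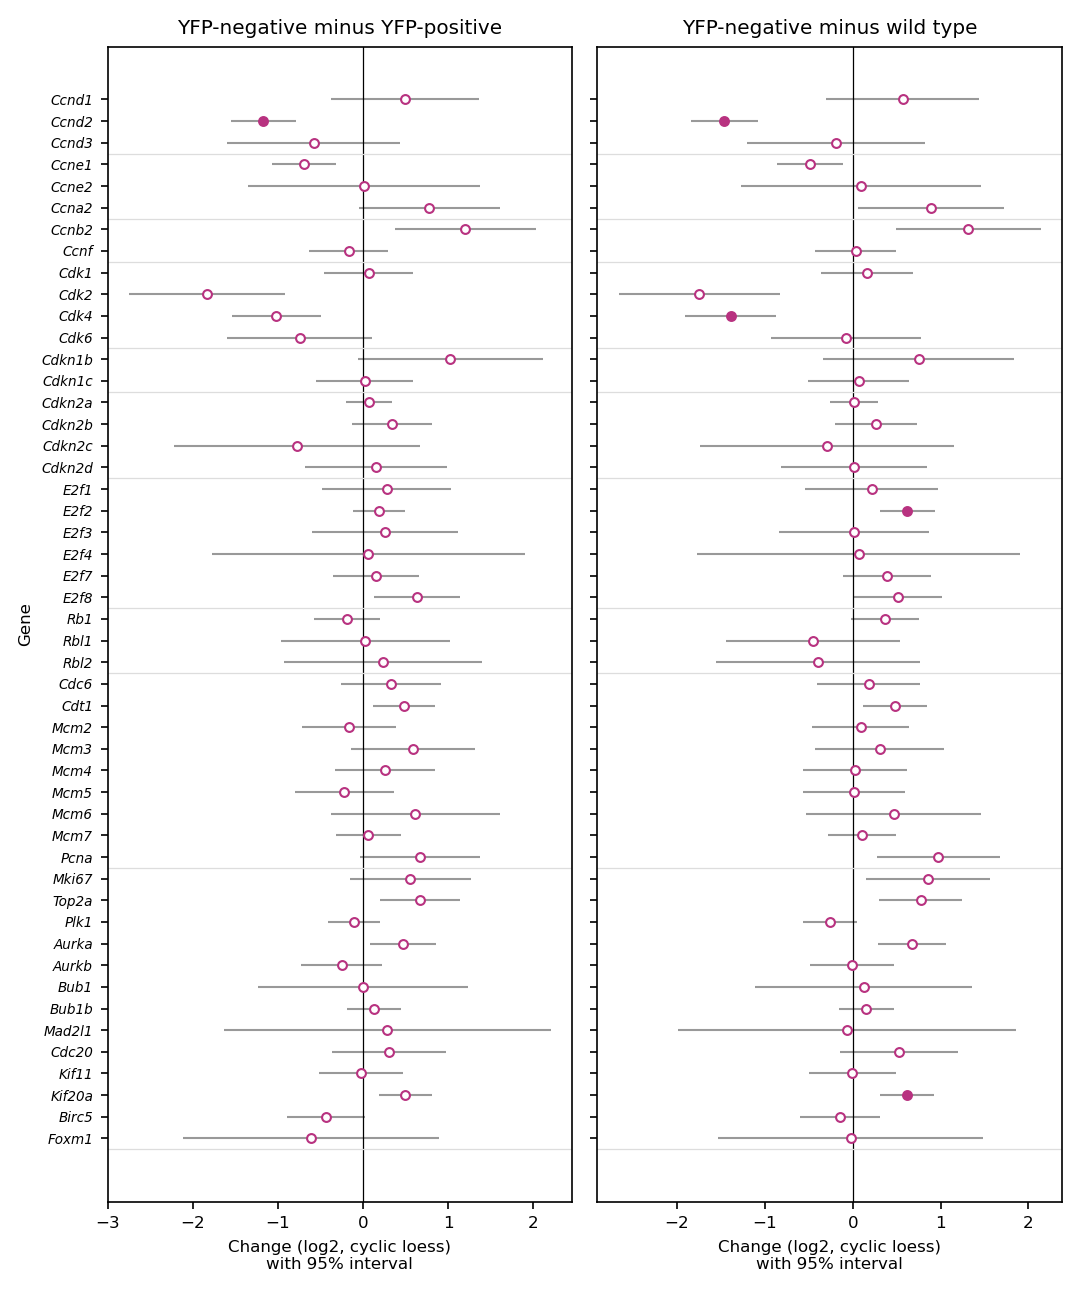
Change in log2 level after cyclic loess with its 95% interval (horizontal axis) of the YFP-negative array against YFP-positive and against wild-type cells for the 49 genes (vertical axis); filled symbols have an adjusted p under 0.05. Most intervals cross 0, and Ccnd2 is the gene filled in both comparisons (-1.17 and -1.46).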

How the data were processed

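The authors deposited RMA values, which are log2 signals with 1 value for each transcript cluster in each array; Affymetrix Expression Console 1.3.1 and RMA are named per the submitters' processing notes, and, per the labels' protocols, amplification used NuGEN's Ovation Pico WTA System V2. Whether all 9 arrays were summarised together is not given in the sources used here. The deposited table holds 35556 measurements: 21789 with 1 gene symbol, 1621 with several and 12146 with none. Symbols came from the platform annotation; 21698 Entrez identifiers matched the reference gene table and 0 symbols changed. Where a gene had several measurements (4 of the 51 described), the measurement with the highest mean over the 9 arrays was used.

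All 9 arrays entered 1 limma fit (limma 3.58.1, R 4.3.3) with a mean per group and eBayes moderation (5 residual degrees of freedom, 2.50 prior degrees of freedom on deposited values and 2.27 after loess), two-sided, with Benjamini-Hochberg adjustment over 21789 measurements and a threshold of 0.05. The scripts were tested on simulated data. Cyclic loess was applied for comparisons with the YFP-negative array; the medians used as the cut for low signal were 4.43 as deposited and 4.53 after loess. Array number limits precision.

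Genes given with all their values were all Cdk inhibitors and D-type cyclins and, in each other role, the 2 with the largest and the 1 with the smallest change between YFP-positive cells and marrow; further genes were added with their values seen. The members, lists, normalization and motifs were chosen with earlier results of these data known. Alternatives were other normalizations, a filter on low signal, all measurements, trend and robust moderation, array weights, a replicate block, the mean of a gene's measurements and leaving out each array. Promoters came from RefSeq's table of 32851 windows; a gene with several counts if any holds the motif.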

Additional observations from a re-analysis of the deposited data

How the results depend on the processing

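Counts of called genes among the 49 stayed within 1.5 times of those reported for YFP-positive cells against marrow (36 to 45), wild-type cells against marrow (36 to 42) and YFP-negative cells against marrow (33 to 47), and stayed at 0 between YFP-positive and wild-type cells, under every alternative run. The comparisons of the YFP-negative array did not. Against YFP-positive cells (1 call) the count was 34 as deposited, 4 after quantile normalization, 4 after a shift to a common median, 2 with the filter on low signal, 2 with trend and robust moderation, 3 with array weights, 2 with the mean of a gene's measurements, and 1 to 2 when each array was left out. Against wild-type cells (4 calls) it was 36 as deposited, 2 with the filter, 2 with all measurements, 9 with array weights, and 1 to 6 when each array was left out. As deposited, the median of this array was 3.46, against 4.51 to 4.60 in the others. The cause of these moves was not tested. As deposited, E2f2 and Kif20a turned to -0.77 and -0.52 against wild-type cells. With the replicate number as a block the counts were 42, 39 and 0 for the 3 comparisons without the YFP-negative array. For that array they were 0 against YFP-positive, 0 against wild-type cells and 35 against marrow. Same-numbered YFP-positive and wild-type arrays correlated at -0.06, -0.03 and -0.01 in their deviations from group means, and differently numbered ones at -0.12 to 0.16. Such deviations sum to 0 within a group, so these correlations cannot decide whether the numbers pair the arrays. A tally was made for the genes chosen by the rule above, in each comparison where the reported fit called them. Of its values, 1143 kept direction and side of the threshold, 72 kept direction and were no longer past it, and 2 reversed. The tally leaves out genes added later, such as Cdk4, E2f1 and Foxm1. It also leaves out uncalled genes that an alternative calls, such as Cdkn2c, E2f4 and Rbl2.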
